A study of Homo sapiens with 12 samples.

Results

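Of 12 RNA-seq libraries from NT2/D1 cells, a pluripotent line of human embryonal carcinoma that responds to all-trans retinoic acid (ATRA) by differentiating, 6 came from cells in which CRISPR/Cas9 had removed PRMT6, an arginine methyltransferase that modifies histone H3 and other proteins. These knockout libraries fell into a low and a high form for COL3A1 and DCN, which encode a fibrillar collagen and the matrix proteoglycan decorin. The low form was replicate 2 with ATRA and replicate 3 without it, and the high form was ATRA replicates 1 and 3 and untreated replicates 1 and 2. The genes described here were chosen by these same values. Within each treatment, counts scaled to CPM (counts per 1e6, with edgeR's TMM factors) in the low library were divided by the mean of both high libraries. A gene was a member where this ratio was at least 4-fold in the same direction with ATRA and without it, and where one side reached 5 CPM in each treatment. Of 56638 genes in the table, 10778 met the CPM floor and 73 were members, 71 lower and 2 higher in the low libraries. That is 0.659% and 0.0186% of the genes at the floor.

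The groups used were the PRMT6 knockout with 1 µM ATRA for 3 days, the untreated knockout, the CRISPR/Cas9 control with the same ATRA treatment, and the untreated control, with 3 libraries each. The titles name a single knockout line, KO-2. No label says whether it is 1 clone, whether a group's libraries are separate cultures, or whether ATRA library 2 and untreated library 3 share an origin, so every p-value below measures only the spread between these libraries. Because the split was drawn from measured values, and each treatment has 1 low library, the low against high values are a description with no test.

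Fibrillar collagens, small proteoglycans and fibroblast proteases build and remodel connective tissue, while smooth muscle actins, myosin and their partners give contractile cells their tension. These genes are known as markers of stromal and mural cells, which arise largely from mesoderm and neural crest. NODAL, T and WNT3A belong to the earlier signals that pattern the embryo, and ATRA acts through nuclear receptors that switch on HOX genes and CYP26 enzymes, which degrade ATRA in turn. PRMT6 deposits asymmetric dimethylation on arginines of histone H3.

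Each library held between 25.5 and 60.4 M counts in total. The low libraries held 35.4 M counts with ATRA and 25.5 M untreated, against 36.0 and 38.2 M and 29.8 and 32.3 M in the high ones of each treatment. PRMT6 held 2 counts in the low library with ATRA and 1 in the untreated low library, against 0, 0, 1 and 0 counts in the high libraries and 110 to 1035 in the controls, so both forms carried the loss. The labels call all of these replicates, but they were unequally close. A chi-square per gene over genes with at least 20 counts, which is near 1 for sampling noise alone, was 118 and 122 between the low and the high ATRA libraries and 78.1 and 80.8 between the untreated ones. It was 1.91 between both high ATRA libraries and 9.01 between both high untreated ones. Across treatments it was 104 between both low libraries, 59.8 to 64.4 between high ones and 145 to 156 between low and high ones. The untreated low library thus lay nearer to the untreated high ones than to the low ATRA library. Control replicates lay 205 to 416 apart untreated, so larger distances were also found between untreated control replicates. With ATRA, control libraries 1 and 3 lay 87.3 apart, less than the low library from the high ones. Control ATRA 2, whose label is in doubt as described below, lay 227 and 314 from them. The share of counts on mitochondrial mRNAs was 3.84% in the low ATRA library against 5.38% and 5.54% in the high ones, and 3.61% against 4.56% and 4.71% untreated. Each library's deviation from the mean log2 CPM of all libraries was correlated with GC content across genes by rank, and the coefficient was 0.316 in the low ATRA library against 0.162 and 0.223, and 0.506 against 0.393 and 0.553 untreated, and ran from -0.436 to 0.103 in the controls. With GC trends removed, 71 genes met the rule, 65 of them among the 73 members. The part of depth and of the mitochondrial share in the results below was not tested. The control library labelled ATRA 2 went against its label, since CYP26A1 was at 0.0519 CPM there and HOXB1 at 1.17 CPM, against 256 and 12.4 CPM and 72.8 and 39.2 CPM in the other control ATRA libraries. The main counts that rest on it are given with and without it.

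The marker genes of the split differed from each other in how far they were lowered. COL3A1, the collagen of elastic and reticular tissue, stood at 1669 CPM in the low library with ATRA, against 10259.8 and 10138 CPM in the high ones and 613, 39.3 and 569 CPM in the control libraries. Without ATRA it stood at 1318 CPM in the low library, against 10563 and 10908 CPM in the high ones and 69.7, 1.88 and 121 CPM in the controls. The low libraries thus kept COL3A1 above each control library while lying 6.11-fold (95% counting interval 6.06 to 6.16) and 8.15-fold (8.06 to 8.24) under the high ones. In a bulk library, fewer cells that make a transcript and less of it per cell cannot be told apart. Counting intervals are exact binomial ones and cover counting error only.

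DCN, in contrast, was close to absent. It held 9 counts in the low library with ATRA, 0.264 CPM, against 27.8 and 26.4 CPM in the high ones and 0.181 to 0.246 CPM in the controls. Untreated, it held 3 counts in the low library, 0.128 CPM, against 22.5 and 17.9 CPM in the high ones and 0.0267 to 0.159 CPM in the controls. The ratios were 103-fold with ATRA (53.97 to 225) and 157-fold untreated (53.4 to 760). MGP, which encodes matrix Gla protein, an inhibitor of calcification, held 4 counts in the low library with ATRA (0.117 CPM), against 51.0 and 50.9 CPM in the high ones and 0.0518 to 0.0615 CPM in the controls. It held no count in the low untreated library, against 23.3 and 21.0 CPM in the high ones and 0.0176 to 0.0576 CPM in the controls. With 3 counts in that library as the floor, MGP was at least 172-fold lower there. FAP, the fibroblast activation protease, was intermediate. It stood at 0.821 CPM in the low library with ATRA against 9.15 and 8.62 CPM in the high ones, and at 0.770 CPM against 6.64 and 5.59 CPM untreated, with at most 0.0922 CPM in any control. So the low libraries lay at or near the controls' level in DCN and MGP and between the controls and the high libraries in COL3A1 and FAP.

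**Figure D1:**
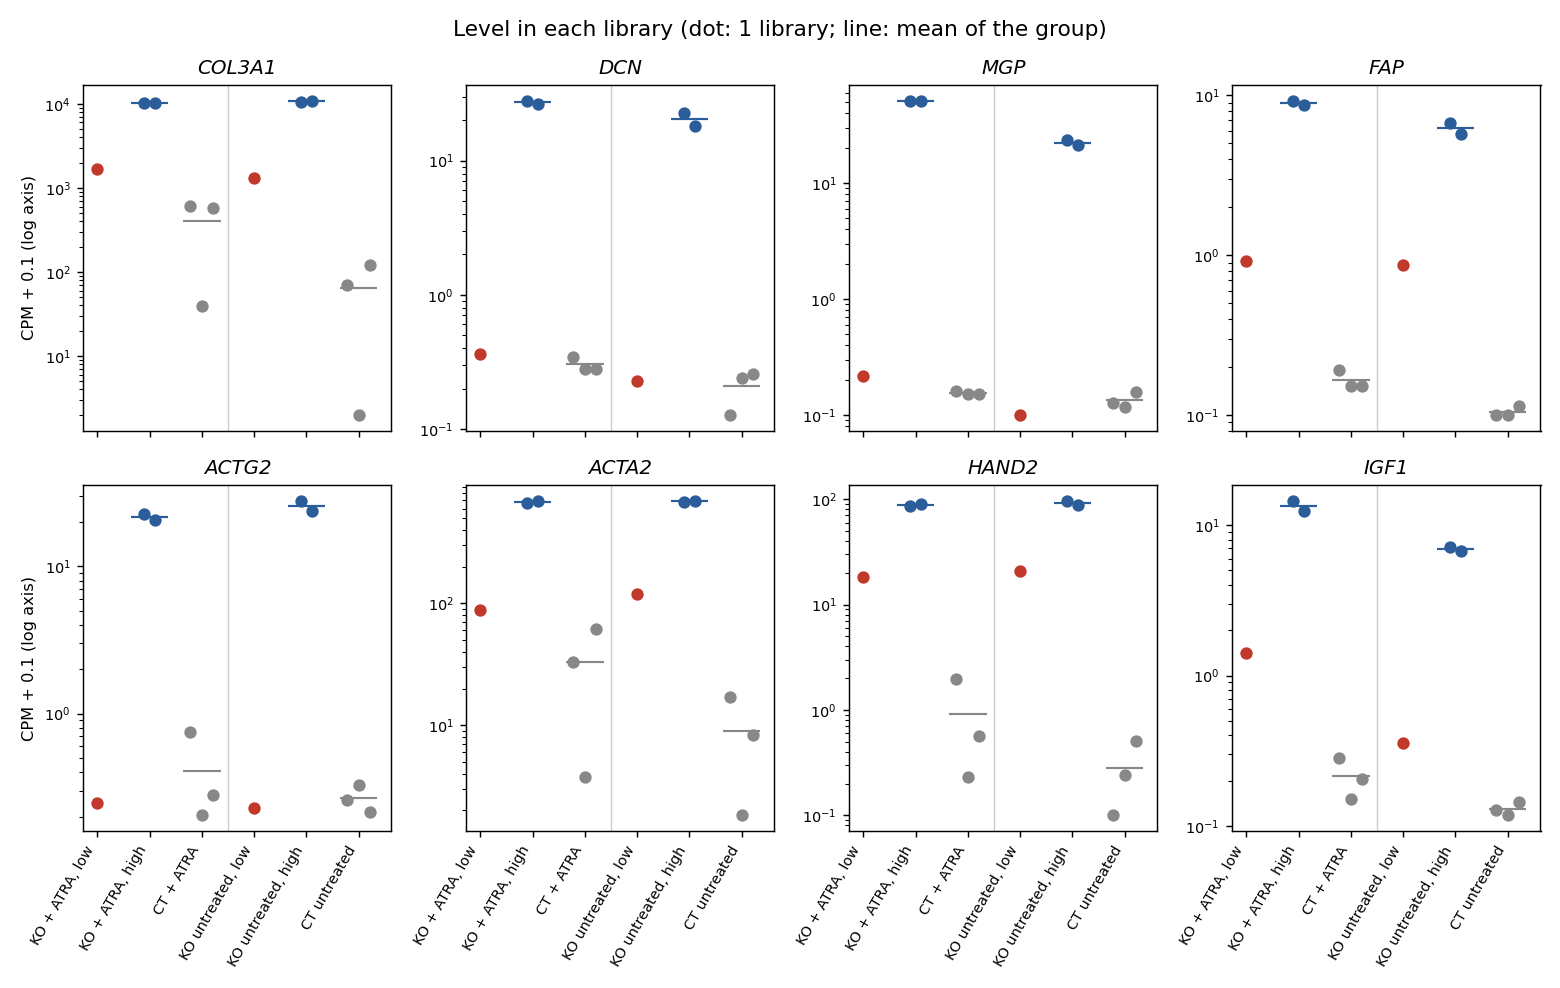
CPM plus 0.1 on a log axis for 8 members, with 1 dot per library and a line at the group mean, for the low knockout library, the high knockout libraries and the controls of each treatment. DCN, MGP and ACTG2 of the low libraries sit with the controls, while COL3A1, ACTA2, HAND2, FAP and IGF1 sit between the controls and the high libraries.

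Across the 71 lower members, the low library kept a median of 13.0% of the high level with ATRA (range 0.230% to 24.3%) and 14.5% untreated (0% to 24.8%). These ranges end near 25% because of the rule itself. Few members were nearly lost. Of the 71, 12 kept under 5% with ATRA and 6 untreated, while 51 and 55 kept at least 10%. Just inside the rule lay FILIP1, at 0.645 CPM in the low library against a mean of 6.05 CPM with ATRA and 1.28 against 5.17 CPM untreated, and STAC, at 2.49 against 10.5 CPM and 3.04 against 12.2 CPM. Just outside lay WNT2, at 3.99 against 15.7 CPM with ATRA and 0.342 against 13.5 CPM untreated, and RFTN1, at 13.1 against 60.6 CPM and 14.98 against 58.0 CPM. On the higher side, ERVH48-1 (76.0 against 17.0 CPM with ATRA and 102 against 26.8 CPM untreated) also fell just short.

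**Figure D2:**
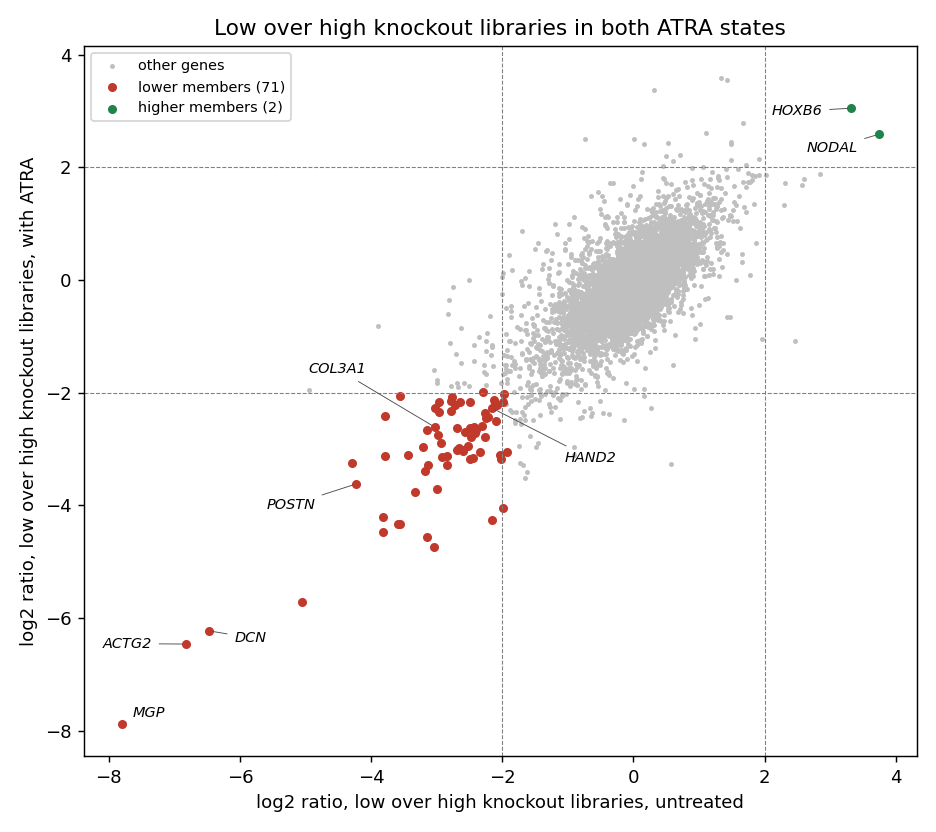
Log2 ratio of the low over the high knockout libraries without ATRA (x axis) and with ATRA (y axis), with 0.1 CPM added to each side, for the 10778 genes at the CPM floor. The 71 lower members (red) and 2 higher members (green) are those past 4-fold in both treatments, marked by dashed lines, and MGP, ACTG2 and DCN lie farthest from the bulk of genes.

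Extracellular matrix genes and their receptors made up 15 of the lower members. Among fibrillar collagens, COL1A1 stood at 357 CPM in the low library with ATRA against 1552 and 1580 CPM in the high ones, and at 493 against 2030.03 and 2267 CPM untreated. COL11A1, which shapes thin cartilage-type fibrils, stood at 54.1 CPM against 297 and 288 CPM with ATRA, and at 85.7 against 406 and 389 CPM untreated. Both collagens were lowered between 4.36- and 5.41-fold, less than DCN and LUM. LUM, encoding the keratan sulfate proteoglycan lumican, stood at 16.6 CPM in the low library with ATRA against 165 and 159.9 CPM, and at 9.03 against 79.7 and 79.7 CPM untreated. POSTN, encoding the matricellular protein periostin, stood at 2.11 CPM against 26.5 and 27.5 CPM with ATRA, and at 0.428 against 9.97 and 9.55 CPM untreated. The collagen receptors DDR2 (7.98 against 57.9 and 53.5 CPM with ATRA, 14.1 against 73.5 and 63.5 CPM untreated) and ITGA1 (1.61 against 13.9 and 12.8 CPM, and 1.80 against 12.8 and 10.99 CPM) were lower as well. ITGA8, the integrin subunit of nephronectin receptors, COL15A1, TINAGL1, SOD3 and the metalloprotease ADAM12 completed the group. Not every stromal gene followed: COL1A2 stood at 15.05 CPM in the low library with ATRA against 14.02 and 15.1 CPM, and at 47.3 against 36.0 and 38.0 CPM untreated, and THY1 at 101 against 109 and 109.9 CPM and at 252 against 236 and 245 CPM.

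Of 27 genes at the floor in a list of fibroblast and stromal matrix genes, 7 were members and 15 were at least 2-fold lower in both treatments, with none 2-fold higher. At 2-fold, 2.76% of all genes at the floor were lower and 0.919% higher in both treatments. The list's median log2 ratio was -1.95 with ATRA and -1.35 untreated, against 0.03 and 0.07 over all genes at the floor. Of 21 integrin, laminin and basement membrane genes, 6 were 2-fold lower and 1 was 2-fold higher, with medians of -0.85 and -0.65. Of 20 matrix remodelling enzymes, 3 were 2-fold lower, with medians of -0.73 and -0.54. Summed over the whole stromal list, the low library held 6984 CPM with ATRA against 22846 to 22915 CPM in the high ones, and 10279.9 CPM untreated against 26298 to 27392 CPM, and the controls held 2549.6 to 7754 CPM. The list holds all 4 marker genes of the split, which make up 4 of its 7 members. Without these 4, the remaining 26 genes summed to 5314 CPM in the low library with ATRA against 12567 and 12622 CPM in the high ones, to 8961 against 15683 and 16439 CPM untreated, and to 2548 to 7185 CPM in the controls.

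Contractile and muscle genes made up 14 of the lower members and included the most lowered gene after MGP. ACTG2, the smooth muscle gamma actin, held 5 counts in the low library with ATRA (0.147 CPM) against 22.5 and 20.6 CPM in the high ones, a 147-fold ratio (62.9 to 454). Untreated, it held 3 counts (0.128 CPM) against 27.8 and 23.9 CPM, a 201-fold ratio (68.6 to 975), and the controls lay at 0.104 to 0.646 CPM. ACTA2, the smooth muscle alpha actin, was lowered far less. It stood at 88.7 CPM in the low library with ATRA against 671 and 692 CPM, and at 120.1 against 684 and 694 CPM untreated, and no control library exceeded 61.9 CPM. MYH11, the smooth muscle myosin heavy chain, stood at 2.61 CPM in the low library with ATRA against 35.9 and 37.4 CPM, and at 5.90 against 64.9 and 55.1 CPM untreated. LMOD1, an actin nucleator of smooth muscle, stood at 10.6 CPM against 70.6 and 73.4 CPM with ATRA, and at 7.32 against 61.1 and 55.7 CPM untreated. Regulators of contraction were lower as well, among them the potassium channel subunits ABCC9 (0.264 against 8.66 and 8.397 CPM with ATRA, 0.727 against 8.15 and 6.25 CPM untreated) and KCNE4, the nitric oxide receptor subunit GUCY1A3, and MRVI1 of the same nitric oxide pathway. The small heat shock proteins HSPB7 and CRYAB were also lower members. MYOCD, the coactivator that drives smooth muscle genes, was no member: it stood at 0.557 CPM with ATRA against 5.10 and 4.79 CPM, but at 6.59 against 6.95 and 5.26 CPM untreated. Of 14 smooth muscle and contractile genes at the floor, 4 were members and 6 were 2-fold lower in both treatments, with medians of -1.35 with ATRA and -0.83 untreated.

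The promoters of ACTG2, ACTA2 and LMOD1 are shown because these contractile genes were lower together and carry short motifs that a search could locate. They are RefSeq windows of 300 bases on GRCh38.p14, 250 before and 50 after the annotated start, read in the direction of the gene. Capitals mark CArG boxes, the element bound by serum response factor, and the motif GGAATG, bound by TEAD factors, which do not overlap here. ACTG2 lies on the plus strand at chr2:73892758-73893057, ACTA2 on the minus strand at chr10:88952724-88953023 (the window, of 2 in the table, that holds a match) and LMOD1 on the minus strand at chr1:201946499-201946798.
ACTG2: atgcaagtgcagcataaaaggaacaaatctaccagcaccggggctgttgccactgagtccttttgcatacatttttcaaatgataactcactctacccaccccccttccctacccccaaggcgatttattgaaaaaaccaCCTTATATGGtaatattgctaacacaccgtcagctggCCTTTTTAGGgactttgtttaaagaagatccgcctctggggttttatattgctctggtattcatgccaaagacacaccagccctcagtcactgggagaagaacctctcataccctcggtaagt
ACTA2: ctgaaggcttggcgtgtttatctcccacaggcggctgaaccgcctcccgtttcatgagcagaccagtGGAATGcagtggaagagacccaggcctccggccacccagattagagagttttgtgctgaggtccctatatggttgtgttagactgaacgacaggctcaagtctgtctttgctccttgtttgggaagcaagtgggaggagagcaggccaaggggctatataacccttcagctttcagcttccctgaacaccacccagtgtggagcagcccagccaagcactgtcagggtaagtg
LMOD1: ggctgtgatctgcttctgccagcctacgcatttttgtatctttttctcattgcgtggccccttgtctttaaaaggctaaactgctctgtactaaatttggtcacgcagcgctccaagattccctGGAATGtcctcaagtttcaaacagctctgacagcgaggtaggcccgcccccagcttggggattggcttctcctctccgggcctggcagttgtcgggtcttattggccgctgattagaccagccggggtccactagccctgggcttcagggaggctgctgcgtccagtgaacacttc
A CArG box was counted only as CC, then 6 letters that are each A or T, then GG. Variants with another letter among these 6, which the ACTA2 window also holds, were not searched and are not in capitals. By that strict pattern ACTG2 holds 2 boxes in this window, and ACTA2 and LMOD1 hold 1 GGAATG each. Windows were found for 48 of the 73 members, searched on both strands. A CArG box was in 3 of the 48 (6.25%; ACTG2, FILIP1 and SOD3) against 1.604% of all 27305 genes in the table, GGAATG in 13 (27.1%) against 16.7%, and TATAAA in 7 (14.6%) against 13.99%. These matches describe the letters only.

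Signalling genes made up 8 lower members, with both a growth factor and its partners. IGF1, the insulin-like growth factor, stood at 1.32 CPM in the low library with ATRA against 14.4 and 12.3 CPM in the high ones, and at 0.257 against 7.09 and 6.64 CPM untreated, with at most 0.184 CPM in the controls. IGFBP5, which binds it outside the cell, stood at 185 CPM in the low library with ATRA against 917 and 924 CPM, and at 137 against 973 and 919.6 CPM untreated. The growth hormone receptor GHR was also a member, at 1.26 against 7.79 and 8.34 CPM with ATRA and 1.11 against 5.90 and 5.89 CPM untreated. Of the whole axis, 2 of 10 genes at the floor were 2-fold lower, none was higher, and the medians were -0.54 and -0.92. SFRP1, a secreted WNT antagonist, stood at 56.1 CPM with ATRA against 251 and 249.7 CPM and at 33.7 against 193 and 189 CPM untreated, below every control library (93.9, 96.1 and 186 CPM with ATRA, 113, 101 and 77.1 CPM untreated). The ligand WNT2B, the guidance cues SLIT3 and SEMA3C and the angiotensin precursor AGT were the other members of this group.

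Transcriptional regulators made up 8 lower members. HAND2, a helix-loop-helix factor of heart and limb mesenchyme, stood at 18.2 CPM in the low library with ATRA against 85.3 and 90.7 CPM, and at 20.7 against 96.3 and 88.7 CPM untreated. The controls held at most 1.88 CPM, so the low libraries stayed far above them. The neighbouring antisense transcript HAND2-AS1 was lower too, at 1.35 against 7.04 and 5.73 CPM with ATRA and 0.770 against 5.65 and 4.97 CPM untreated. Strand handling of the counts is not given, so reads of this pair cannot be assigned with certainty. HEYL, an effector of Notch signalling in vascular smooth muscle, stood at 0.557 CPM with ATRA against 5.36 and 5.89 CPM and at 1.54 against 12.01 and 11.3 CPM untreated. PRDM6, a repressor found in smooth muscle, NFIB, TSHZ2, MYRF and the stress-induced NUPR1 complete the group. Of 12 mesoderm genes at the floor, only HAND2 was a member and 3 were 2-fold lower, with medians of -0.71 with ATRA and -0.90 untreated.

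The remaining 26 lower members had mixed roles. TMEM173, which encodes the innate sensor STING, held 3 counts in the low library with ATRA (0.0880 CPM against 9.99 and 9.61 CPM) and 7 untreated (0.2995 CPM against 13.5 and 12.8 CPM), with 0.0880 to 5.47 CPM in the controls. The coagulation factor F5 stood at 0.235 CPM against 6.11 and 5.97 CPM with ATRA and at 0.599 against 10.5 and 9.09 CPM untreated. PMEL, a melanosome matrix protein, stood at 13.7 CPM against 61.5 and 63.2 CPM with ATRA and at 12.8 against 53.5 and 57.3 CPM untreated, and the controls stood higher than the low libraries throughout (311, 265 and 307 CPM with ATRA, 181, 57.1 and 135 CPM untreated). The members lay on 19 chromosomes, and the median log2 ratio of a chromosome ran from -0.13 to 0.12 with ATRA and from -0.01 to 0.17 untreated. Their median GC content was 49.0%, against 49.5% for genes at the floor.

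**Figure D3:**
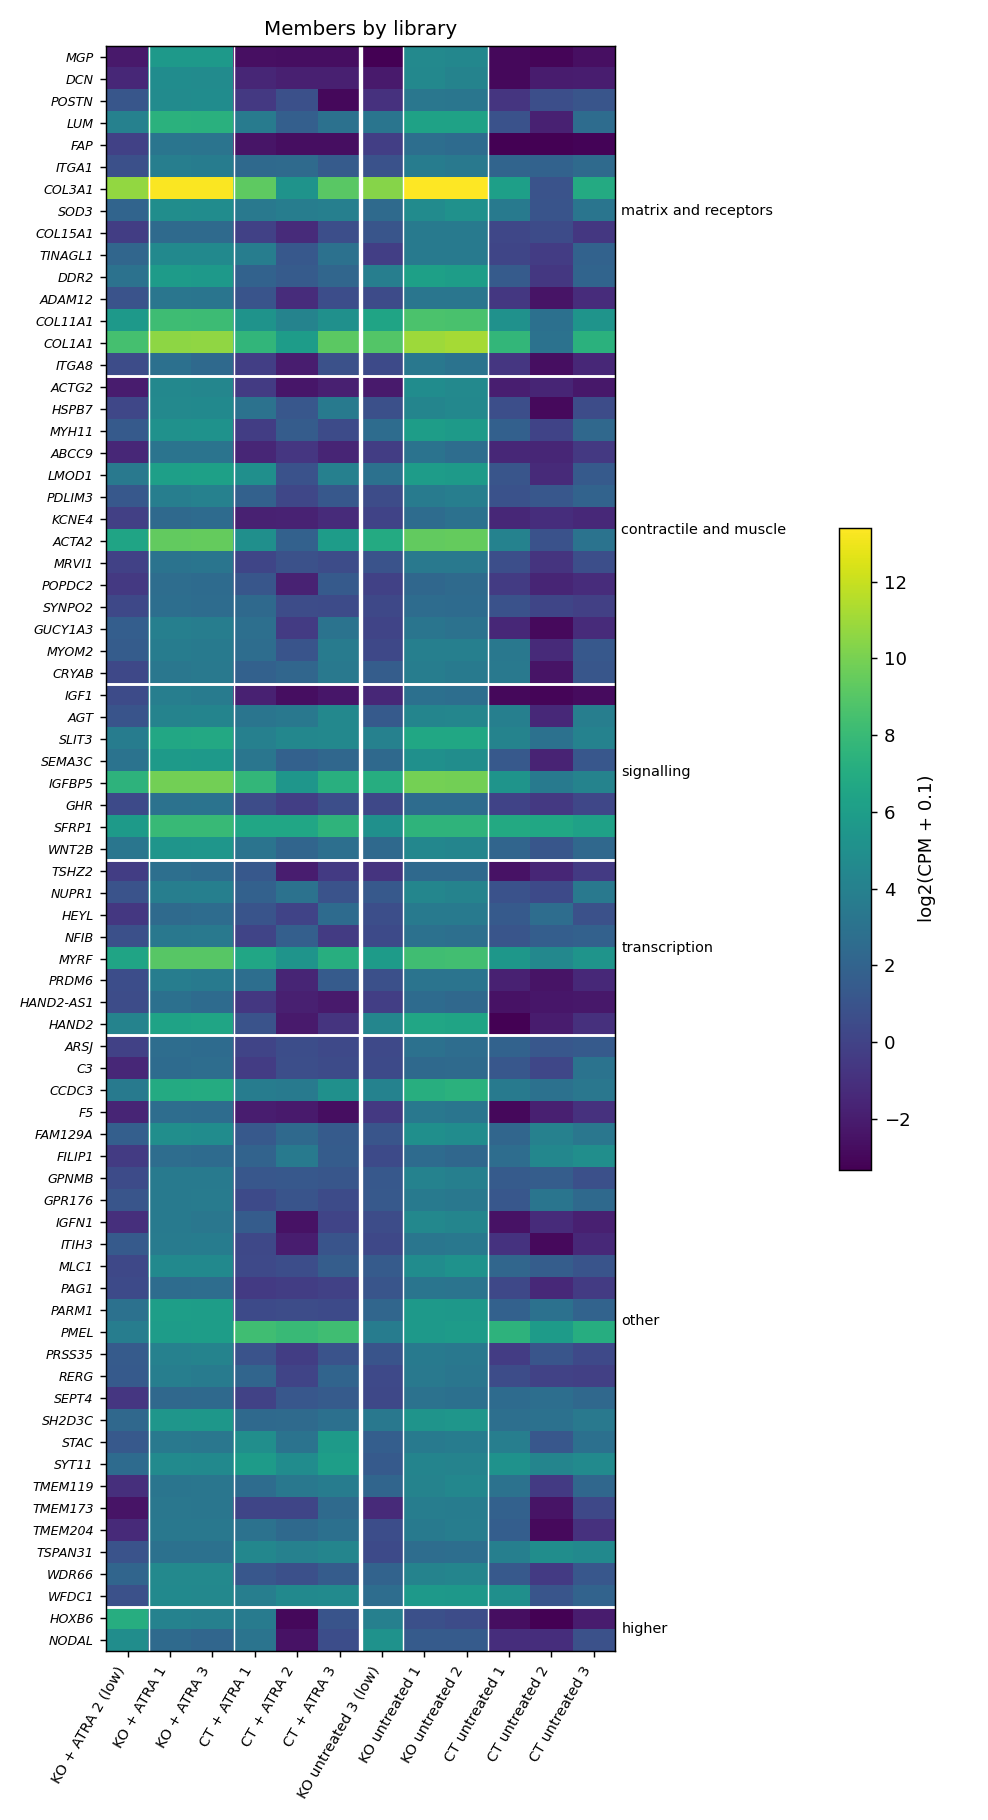
Log2(CPM + 0.1) of the 73 members (rows, grouped by role) in the 12 libraries (columns), with the low, high and control libraries with ATRA on the left and the same without ATRA on the right. The low libraries are darker than the high ones for the 71 lower members and lighter for HOXB6 and NODAL.

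HOXB6 and NODAL were the only genes at the floor that were at least 4-fold higher in the low libraries in both treatments. NODAL, a TGF-beta family ligand that patterns mesoderm and endoderm, stood at 29.7 CPM in the low library with ATRA against 5.33 and 4.40 CPM in the high ones (6.11-fold), and at 37.4 against 2.67 and 2.75 CPM untreated (13.8-fold). Its controls held 0.0779 to 8.73 CPM with ATRA and 0.347 to 1.64 CPM untreated. HOXB6, a homeobox gene of trunk patterning, stood at 136 CPM with ATRA against 16.9 and 15.8 CPM (8.33-fold) and at 15.8 against 1.62 and 1.37 CPM untreated (10.6-fold). Both were above every control library. The early mesendoderm genes T and WNT3A, picked after their values were seen, were higher in the untreated low library. T, which encodes brachyury, stood at 29.95 CPM there against 2.92 and 3.401 CPM, but at 0.792 CPM with ATRA against 1.25 and 1.46 CPM. WNT3A stood at 15.7 CPM against 2.35 and 1.37 CPM untreated, and at 2.17 against 0.840 and 0.964 CPM with ATRA.

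Some epithelial and pluripotency genes were higher in the low libraries in both treatments. CDH1, the epithelial cadherin, stood at 196 CPM in the low library with ATRA against 63.1 and 58.7 CPM, and at 106 against 17.7 and 17.9 CPM untreated. EPCAM stood at 48.7 against 15.7 and 14.8 CPM with ATRA and at 30.5 against 10.5 and 10.4 CPM untreated, and the epithelial splicing regulator ESRP1 at 19.6 against 5.79 and 5.53 CPM and at 17.9 against 4.78 and 5.30 CPM. Of 11 epithelial genes at the floor, 5 were 2-fold higher and none lower, with medians of 0.85 with ATRA and 0.95 untreated. Of 20 pluripotency genes, 5 were 2-fold higher and none lower, with medians of 0.75 and 0.82. They include NODAL itself and TDGF1, its co-receptor, at 38.4 against 14.9 and 16.02 CPM with ATRA and at 116 against 50.2 and 46.8 CPM untreated. POU5F1, the core pluripotency factor, stood at 515 against 305 and 299 CPM with ATRA and at 1523 against 790.4 and 839.5 CPM untreated, with 147 to 895 CPM and 519.6 to 1496 CPM in the controls, so POU5F1 was present in both forms. Of 17 WNT signalling genes, 4 (LEF1, RNF43, WNT3 and FZD10) were 2-fold higher, and SFRP1 was lower. FZD10, a WNT receptor, stood at 45.4 against 14.1 and 13.0 CPM with ATRA and at 45.7 against 12.4 and 14.2 CPM untreated.

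**Figure D4:**
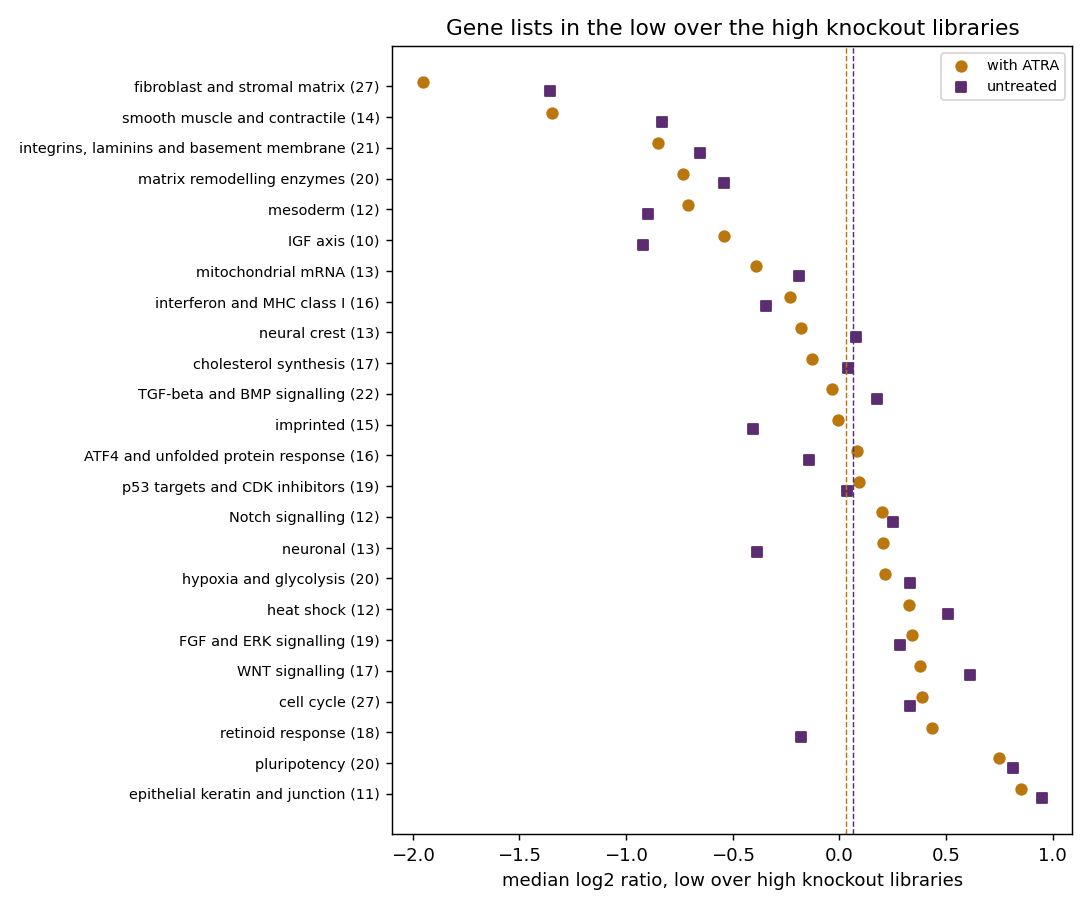
Median log2 ratio of the low over the high knockout libraries for gene lists with at least 10 genes at the CPM floor (their number in brackets), with ATRA (circles) and untreated (squares). Dashed lines give the medians of all genes at the floor, 0.03 and 0.07. The stromal list lies lowest and the epithelial list highest in both treatments.

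Endothelial and blood genes were hardly expressed, and neuronal genes were not shifted 2-fold. Of 14 endothelial genes, PECAM1 had no count in any library, 2 genes reached the floor, and the summed level was 33.9 CPM in the low library with ATRA against 49.1 to 52.1 CPM, and 45.7 against 61.3 to 62.6 CPM untreated, with 55.8 to 143 CPM in the controls. Of 12 blood and macrophage genes, 1 reached the floor, and the defining markers PTPRC and CD68 stayed at or under 1.05 CPM in each knockout library. The list summed to 35.7 CPM in the low library with ATRA against 24.3 to 25.4 CPM, to 23.6 against 18.5 to 19.1 CPM untreated, and to 10.3 to 40.3 CPM in the controls. Among 24 neuronal genes, 13 reached the floor, and none was 2-fold different in both treatments. They summed to 907 CPM in the low library with ATRA against 802 to 816 CPM, to 834 against 764 to 789 CPM untreated, and to 361 to 1001 CPM in the controls. Cell cycle genes did not reach 2-fold either, with medians over 27 genes of 0.39 and 0.33. The part of cell composition in the split was not tested.

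The lower members were also set against the control. The rule chose them for high values in the high libraries, so the shares of all genes given here are printed for reference and nothing is read from them. With ATRA, the low library was above all 3 control libraries for 21 of the 71 lower members and below all 3 for 27, where 33.8% and 30.7% of the genes at the floor were. Untreated, it was above for 33 and below for 14, where 37.5% and 32% of genes were. Both high libraries were above all controls for 60 of the 71 with ATRA and 65 untreated, against 27.5% and 32.4% of genes. The median log2 ratio of the lower members to the control mean was -0.31 in the low library with ATRA against 2.62 in the high ones, and 0.31 against 3.31 untreated. Leaving out control ATRA 2, the low library was above both remaining controls for 25 members and below for 40, and the median was -0.45 against 2.37. The share of all genes was not computed for 2 controls, which are easier to lie outside than 3. Counts without control ATRA 2 are therefore not comparable with the others. The low library was above all controls for 8 of 15 matrix genes and receptors with ATRA (8 also without control ATRA 2) and 9 untreated. It was below all controls for 2 of these with ATRA (4 without control ATRA 2) and 3 untreated. Of 14 contractile genes, it was above all controls for 2 with ATRA (4 without control ATRA 2) and 9 untreated. It was below all controls for 4 of these with ATRA (10 without control ATRA 2) and 1 untreated.

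The study's own comparisons, which treat the knockout libraries of a treatment as replicates, were fitted in edgeR over all genes. The rule used the same knockout libraries, so the counts are a description and nothing further is read from them. With ATRA, 18 lower members were called higher and 1 lower in the knockout (edgeR quasi-likelihood test, adjusted p under 0.05), where 3.27% and 4.24% of the 19130 genes tested were. Untreated, 44 lower members and both higher members were called higher and 2 lower members were called lower in the knockout, where 13% and 21.9% of genes were. HAND2 averaged 64.7 ± 40.4 CPM in the knockout with ATRA and 0.824 ± 0.926 CPM in control cells (n = 3 each, ± SD), a log2 fold change of 6.32 with an SE of 1.09 (edgeR adjusted p = 0.00883, or 5.80 and an edgeR adjusted p of 0.0208 without control ATRA 2), and 68.6 ± 41.7 and 0.181 ± 0.205 CPM untreated (8.39 ± 1.205, edgeR adjusted p = 0.00232). In each treatment 1 of the 3 knockout libraries, the low one, stood far from the others. COL3A1 averaged 7356 ± 4925 CPM in the knockout with ATRA and 407 ± 319 CPM in the control, which was not called (4.18 ± 1.35 SE, edgeR adjusted p = 0.0737, or 3.64 and an edgeR adjusted p of 0.185 without control ATRA 2), and 7596 ± 5440 and 64.1 ± 59.6 CPM untreated (6.89 ± 1.54, edgeR adjusted p = 0.00753). TSPAN31 and FILIP1 were the members called lower in the untreated knockout, and PMEL the one with ATRA. TSPAN31, a tetraspanin, averaged 4.72 ± 3.02 CPM in the untreated knockout and 22.7 ± 7.33 CPM in the control (log2 fold change -2.26 ± 0.60 SE, edgeR adjusted p = 0.0145).

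A term for the low libraries takes the split out of the spread and makes the knockout estimate that of the high libraries, by construction. The lower members were chosen for high values there, so nothing is read from the counts. With this term, 47 members were called between knockout and control with ATRA in place of 19, and 59 untreated in place of 48. Over all genes, the calls with ATRA were 1962 in place of 1437, and those untreated 6445 in place of 6676. Leaving out 1 library moved the count with ATRA to between 4 and 28 members. It was 4 without control ATRA 2 (IGF1, PARM1, FAP and HAND2), 4 without either high knockout ATRA library, 6 without control ATRA 1, 10 without control ATRA 3 and 28 without the low library. The calls over all genes in these fits were 632 without control ATRA 2, 241 and 219 without high knockout library 1 and 3, 972 and 2077 without control ATRA 1 and 3, and 831 without the low library. Leaving out an untreated library, which enters only the shared spread, gave 9 and 10 without the high knockout libraries 1 and 2 and 12 without control library 3, where 843, 820 and 1223 genes were called. Untreated, the count lay between 28 and 49, with 28 without either high knockout library or without control library 3, where 3788, 3058 and 3548 genes were called over all.

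ATRA against untreated within the control is a comparison that the rule did not use. No member was called there (edgeR, adjusted p under 0.05), where 0.0993% of genes were called higher and 0.0157% lower. At an unadjusted p under 0.05, 7 of the 73 members were higher and 2 lower, where 9.94% and 10.8% of all genes tested were. DESeq2 called 4 members higher (LMOD1, PRDM6, IGFBP5 and GUCY1A3), where it called 4.55% of genes higher, a share near that of the members. Without control ATRA 2, the library that went against its label, 5 members were called, all higher with ATRA: these 4 and HOXB6. In that fit 2419 genes were called over the whole table, 5.4% of the genes tested higher, in place of 22. GUCY1A3 stood at 6.86, 0.649 and 8.27 CPM in the control with ATRA and 0.267, 0.0352 and 0.317 CPM untreated (log2 fold change 5.18 without library 2, edgeR adjusted p = 0.00882). IGFBP5 stood at 220, 44.1 and 152 CPM with ATRA and 39.7, 11.4 and 18.2 CPM untreated (3.02, edgeR adjusted p = 0.0354). COL3A1 of the control stood at 613, 39.3 and 569 CPM with ATRA against 69.7, 1.88 and 121 CPM untreated. It was not called, either in the main fit (edgeR adjusted p = 0.252) or without library 2.

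ATRA against untreated within the knockout had no member called in edgeR, where 0.0261% of genes were called higher and 0.00523% lower, and both sides held 1 low and 2 high libraries. DESeq2 called no member either, where it called 1.86% of genes higher. At an unadjusted edgeR p under 0.05, 1 member, HOXB6, was higher, where 7.09% of all genes tested were higher and 4.58% lower. Members were chosen for differing between knockout libraries, which widens their spread, so nothing is read from these counts. The lower members had a median log2 fold change of 0.05 there, against 0.02 over all genes. Within each form, more genes passed 4-fold in the low pair. Of 10922 genes with a mean of 5 CPM over the knockout libraries, 117 were at least 4-fold higher with ATRA in the low pair and 23 in the high libraries, 18 of them shared, and 68 and 20 were at least 4-fold lower, 19 of them shared. The low pair is 1 library on each side and the high values are means of 2, so the counts differ in precision and were not tested. The 5 CPM mean also includes the low ATRA library, so a gene high only there could pass. ISX did so, at 39.7 CPM there and at most 1.57 CPM in the other knockout libraries. Nothing is therefore read from the difference between these counts.

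Retinoid-responsive genes, named here after their values were seen, were among them. CYP26A1, the main ATRA-degrading enzyme, stood at 1018 CPM in the low knockout library with ATRA and 4.45 CPM in the untreated low one, against 12.7 and 11.04 CPM with ATRA and 1.48 and 1.14 CPM untreated in the high libraries. In the control it stood at 256, 0.0519 and 12.4 CPM with ATRA and 0.0267, 3.20 and 0.0432 CPM untreated. CYP26B1 stood at 89.3 CPM in the low library with ATRA against 2.38 and 2.81 CPM in the high ones, and at 1.03 against 0.492 and 0.425 CPM untreated. HOXB1, an early target of retinoic acid receptors, stood at 212 CPM in the low library with ATRA against 19.7 and 21.2 CPM in the high ones, yet at 17.5 against 14.5 and 13.7 CPM untreated, so the forms were close untreated and apart with ATRA. The receptor gene RARB was close in both forms with ATRA, at 20.7 against 19.6 and 17.5 CPM with ATRA and 4.28 against 8.75 and 6.28 CPM untreated.

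Of 20 retinoid response genes with a mean of 5 CPM over the knockout libraries, 19 had a larger log2 ratio of ATRA over untreated in the low pair than in the high libraries, where 45.0% of all 10922 genes did. The median log2 ratio of the list was 2.34 in the low pair, 0.64 in the high libraries and 1.79 in the control, or 2.23 without control ATRA 2. For 9 HOXA genes the medians were 3.58, 1.59 and 3.72 (4.27 without that library), with all 9 larger in the low pair, and for 8 HOXB genes 3.34, 1.95 and 3.71 (4.26), with 7 of 8 larger. The 5 CPM mean includes the low ATRA library, so a gene could enter a list through that library alone. HOXB8 did so, at 89.5 CPM there and at most 4.63 CPM in the other knockout libraries. These counts are thus a description and nothing further is read from them. For the 14 smooth muscle and contractile genes the order was the other way, at -0.36, 0.11 and 0.96 (1.27), with 2 of 14 larger in the low pair, and for 27 stromal genes it was -0.81, -0.22 and 0.35 (0.59), with 5 of 27 larger.

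**Figure D5:**
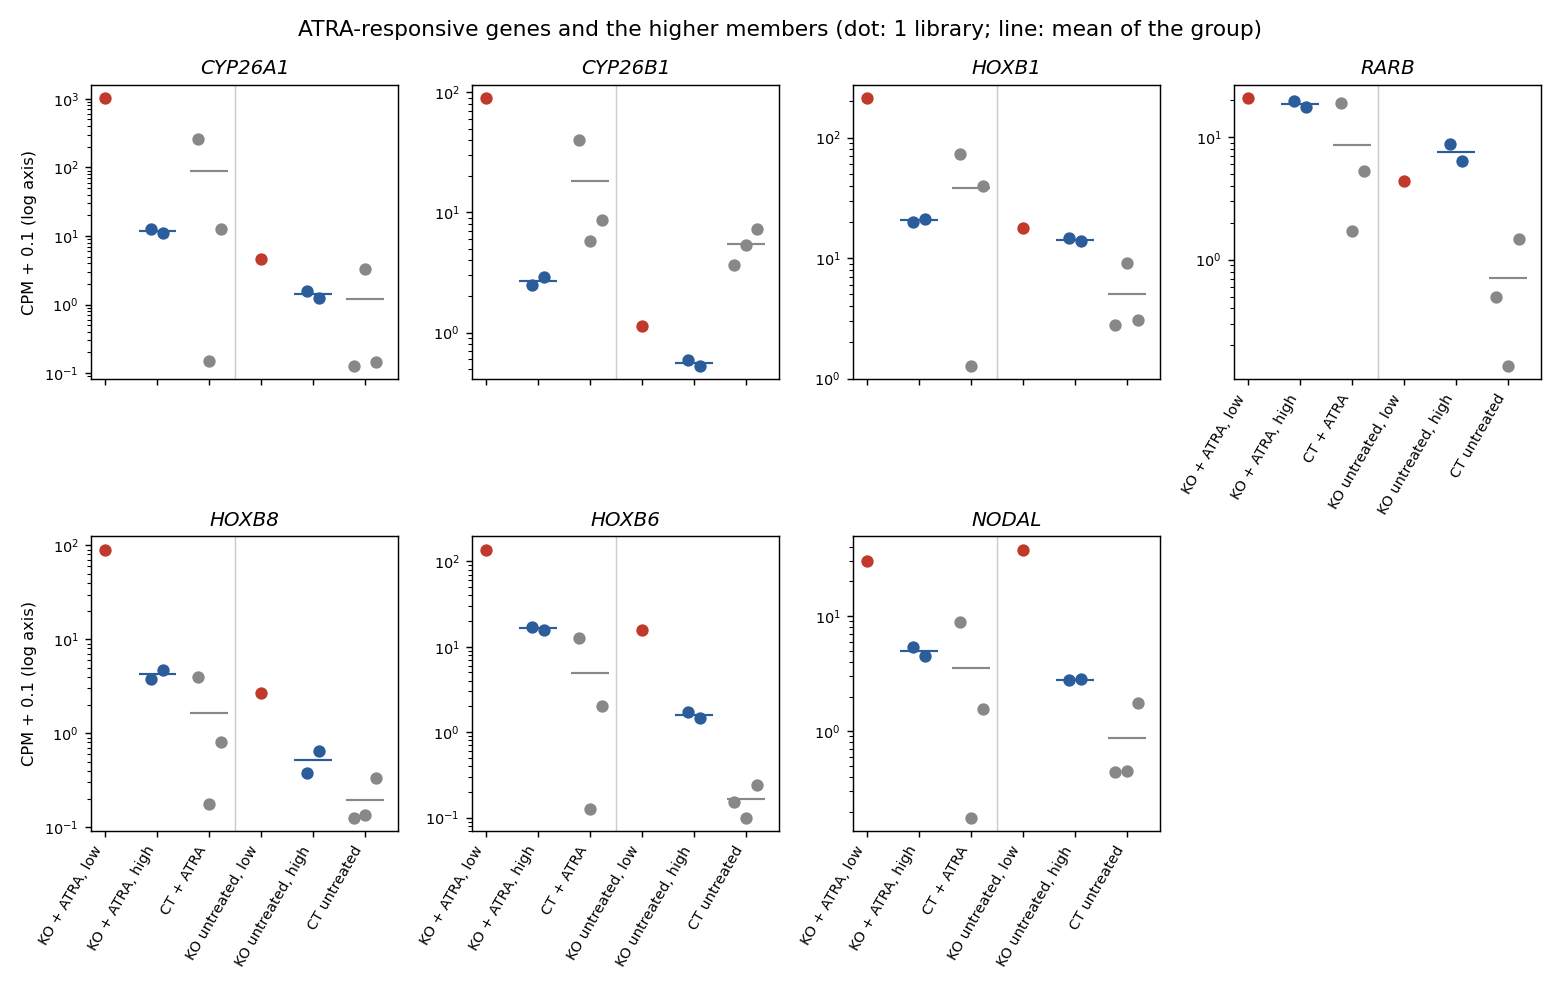
CPM plus 0.1 on a log axis for 5 ATRA-responsive genes and both higher members, with 1 dot per library and a line at the group mean. In the low knockout library with ATRA, CYP26A1, CYP26B1, HOXB1 and HOXB8 exceed all other libraries, while RARB is close to the high libraries. Control ATRA 2 lies lowest of its group in every panel.

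The control libraries also varied in the lower members. With 0.1 CPM added, 27 of the 71 (38.0%) spanned at least 4-fold among untreated controls, against 5.49% of genes at the floor. With ATRA it was 24 (33.8%) against 5.37%. That count includes control ATRA 2, the library that went against its label, and was not computed without it. It may therefore hold a difference in treatment as well as spread between replicates. Library 2 was lowest of its group for 54.9% of them with ATRA and 62.0% untreated, against 45.1% and 44.6% of genes. Members and other genes were not matched by level. COL1A1 and ACTA2 are examples picked after their values were seen. COL1A1 stood at 202, 60.9 and 585 CPM in the control with ATRA and 212, 7.86 and 161 CPM untreated. ACTA2 was likewise lowest in library 2, at 3.64 CPM against 32.8 and 61.9 CPM with ATRA and at 1.72 against 16.9 and 8.20 CPM untreated.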

How the data were processed

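RNA of NT2/D1 cells was sequenced as 12 TruSeq stranded mRNA libraries, per the labels. The values are deposited raw read counts for each gene, which the authors made with bcl2fastq, TopHat2 and featureCounts of Subread on hg19 (GRCh37), per the submitters' processing notes, which also name DESeq2. For the strand setting and annotation: not given in the sources used here. From these counts, CPM scaled by TMM and tests were computed in edgeR 4.0.16 (R 4.3.3): a quasi-likelihood F-test over all 12 libraries and 4 groups, on 19130 genes past filterByExpr (minimum count 10), with Benjamini-Hochberg adjustment and a threshold of 0.05. DESeq2 1.42.0 was an alternative. Log2 ratios had 0.1 CPM added to each side. Depth was 25.5 to 60.4 M counts, so 3 counts equal 0.0432 to 0.128 CPM. The members and gene lists were chosen with earlier results of these data known. Named genes were PRMT6, the 4 markers, the 14 members furthest past the rule in each direction and up to 3 members of each list. Other named genes were chosen after their values were seen. Promoters come from RefSeq on GRCh38.p14. The added views without control ATRA 2 were chosen after seeing the data. Some genes are not reported here.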

Additional observations from a re-analysis of the deposited data

How the results depend on the processing

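The 73 members became 148 with a CPM floor of 1, 28 with a floor of 20, 397 at 2-fold and 20 at 8-fold, which follow from the rule itself. RLE scaling, total counts and removal of GC trends gave 69 to 71, and leaving out 1 high knockout library gave 69 to 75. For ATRA in the control, no member was called in edgeR, against 4 in DESeq2, 10 with no filter on low counts (1621 and 1407 over all genes, against 22) and 0 to 5 when 1 library was left out. Without untreated control 1 the only member was GUCY1A3, where 2457 genes were called, 5.81% of the genes tested higher. For the knockout against the control with ATRA, 19 members became 43 in DESeq2, 47 with no filter and 47 with a term for the low libraries, and 4 to 28 when 1 library was left out. Over all genes, DESeq2 called 2964, the fit with no filter 2317 and the fit with the term 1962, against 1437. Untreated, 48 became 28 to 49 when 1 library was left out. With GC trends removed, 21 members were called with ATRA and 42 untreated. Over all genes, that fit called 1312 with ATRA and 3244 untreated, against 1437 and 6676, and 0 for ATRA in the control. The cause of these changes was not tested. With the replicate number as a replicate block, the counts were 7 for the knockout against the control with ATRA, 43 untreated and 0 for ATRA in the control and in the knockout. Over all genes, the block fit called 761 for the knockout with ATRA against 1437, and 5772 untreated against 6676. Same-numbered libraries of different groups did not deviate together more often than others. Their correlations were -0.67 to 0.63 (5 of 18 over 0.1), against -0.67 to 0.70 (17 of 36) between different numbers, where both low libraries were highest. The numbers were therefore not taken as pairs. ATRA in the knockout stayed at 0 members under every alternative run, and these runs called 0 to 561 genes over all. No named gene's fold change turned sign in a call. In members with 3 to 9 counts in a low library, such as DCN, MGP and ACTG2, depth limits how precisely the ratio is known.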
